A study of Homo sapiens with 6 samples.

Results

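Antisense long noncoding RNAs are transcribed from the strand opposite a gene, and many carry the symbol of that partner gene with a suffix. The RNAs described here were chosen by their symbol, which ends in -AS1, -AS2 or -AS3, and by a highest level of at least 2 FPKM (fragments scaled to exon length and to library depth) over 6 libraries. They numbered 127 of the 1155 genes with such a symbol, among 50868 genes with values. Since they were selected on the highest of the values that are compared, an RNA that differs between libraries passes the limit more easily than a steady RNA of the same mean, and the counts given are descriptions. Partner genes were not chosen by their own values.

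RNA came from UM-UC-3 and 5637, both established human bladder cancer cell lines, which had been infected with lentivirus and kept under puromycin until stable. Each line carried a control hairpin (sh-NC) or 1 of 2 hairpins against the long noncoding RNA LNMAT1, sh-LNMAT1#1 and sh-LNMAT1#2. One stranded mRNA library per construct and line was sequenced, to depths of 24711000, 22279000 and 22948000 fragments for sh-NC, sh-LNMAT1#1 and then sh-LNMAT1#2 in UM-UC-3 and 22439000, 20803000 and 19375000 fragments for the libraries labelled 5637. A difference between knockdown and control in 1 line therefore has no replicate check.

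Antisense RNAs are found in several arrangements. Some start next to the promoter of the partner and are transcribed away from it, some run into the partner's last exons, and some lie inside an intron. Transcripts that leave a promoter backwards are often degraded by the nuclear exosome, an RNA-degrading complex, while others are spliced and stable. Where both strands of a locus are transcribed, the RNAs can pair into duplexes, which are bound by editing enzymes and by sensors of foreign RNA.

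LNMAT1 is listed under the symbol LINC01296. Its level in UM-UC-3 was 14.2 FPKM with sh-NC, 6.2 with sh-LNMAT1#1 and 6.7 with sh-LNMAT1#2. In the libraries labelled 5637 it was 11.7, 4.7 and 2.14 FPKM in the same order. The 4 knockdown values were all below both control values. On the log2(FPKM + 0.5) scale, used for all differences, sh-LNMAT1#1 and sh-LNMAT1#2 differed from sh-NC by -1.13 and -1.02 in UM-UC-3, and by -1.23 and -2.21 in 5637. In a model of all 6 libraries that also held the line, the knockdown difference was -1.40 (SE 0.35) and did not pass the test (limma, adjusted p = 0.569). The 5637 differences and this estimate rest on the library labelled 5637 sh-NC, so the UM-UC-3 differences are those that leave it out. Between the knockdown libraries of the lines LINC01296 differed by -0.91, which was not called (adjusted p = 0.0987).

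In the antisense RNAs described here, the library labelled 5637 sh-NC went against its label. Its level was closer to the mean of the UM-UC-3 knockdown libraries than to that of the 5637 knockdown libraries for 117 of 127. The median absolute distance was 0.23 against 1.33 on the log2 scale. Across the 127 RNAs, Pearson's r of this library was 0.961 with sh-LNMAT1#1, 0.880 with sh-LNMAT1#2 and 0.839 with sh-NC, all of UM-UC-3. With the 5637 sh-LNMAT1#1 and sh-LNMAT1#2 libraries r was 0.217 and 0.271, although those libraries had an r of 0.961 with each other. These values describe RNAs that share libraries, and genes are not independent replicates. The RNAs were also chosen by their highest value, which fell in this library for 34 of them. Without this library 7 would not have been chosen. That choice bears on the count of 117 and on each r. No count or r over all genes stands beside them, so they are descriptions. The label was kept, and results that rest on this library are given as such, beside a comparison that leaves it out.

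Markers of the cell type were read in the same way. The 11 epithelial markers summed to 25.1, 21.5 and 31.2 FPKM in the UM-UC-3 libraries, 26.9 in the library labelled 5637 sh-NC, and 804 and 1083 in the 5637 knockdown libraries. All 11 were higher in 5637, and KRT19, the most abundant, had 299.6 and 409 FPKM there against at most 0.113 elsewhere. In UM-UC-3 EPCAM, CDH1, KRT5, KRT17, GRHL2 and ESRP1 were under 0.1 FPKM in each library, so several epithelial markers were at or near 0 there. Others of the list were present in UM-UC-3. KRT18 had 19.4, 15.9 and 25.2 FPKM and KRT8 had 4.36, 4.5 and 4.65. KRT7 had 0.895, 0.736 and 0.867 FPKM, and TP63 had 0.221, 0.108 and 0.238. The 6 mesenchymal-like markers summed to 399, 183, 228, 164, 122 and 119 FPKM over the libraries in the same order, and VIM reached 332 FPKM with sh-NC in UM-UC-3 and 3.85 and 4.14 in the 5637 knockdown libraries. Of the 5 that were kept for the test 4 were lower in 5637, while FN1 was higher. The 5 immune markers summed to 15.4, 29.4, 13.0, 31.1, 1.41 and 1.23 FPKM, with CD68 the most abundant in each library, and CD3E and LYZ were listed at 0 in the 6 libraries. The 3 endothelial markers summed to at most 0.284 FPKM and the 5 fibroblast markers to at most 8.33, with COL1A1 the most abundant. In bulk RNA, fewer cells of a type and less RNA per cell cannot be told apart, and the part of these markers in the results that follow was not tested.

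Most of the antisense RNAs were present at low levels. The median of their highest value was 3.90 FPKM. Of the 127, 82 peaked between 2 and 5 FPKM, 29 between 5 and 10, and 16 at 10 FPKM or more. In each of the 6 libraries 48 of them had at least 1 FPKM. A further 40 had at least 1 FPKM in both UM-UC-3 knockdown libraries and less in both 5637 knockdown libraries, and 15 showed the reverse. The counts of 40 and 15 rest on the selection by the highest value. They have no count over all genes beside them and are not read against each other. In UM-UC-3 the levels of the 127 RNAs summed to 446, 614 and 524 FPKM, to 605 in the library labelled 5637 sh-NC, and to 317 and 319 in the 5637 knockdown libraries. The highest of the 6 values fell in the library labelled 5637 sh-NC for 34 RNAs, and 7 of them reached 2 FPKM in that library alone. GENCODE release 29, a gene annotation, held 126 of the 127 by identifier, and typed 91 as antisense, 20 as lincRNA and 3 as protein coding, among them NCBP2-AS2. Positions and lengths were taken from that release, and 113 of the 126 had the same position there as in the table.

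Just inside the limit were VLDLR-AS1 with a highest value of 2.02 FPKM, RHPN1-AS1 with 2.01 and RTCA-AS1 with 2.00. Just outside it were RAB30-AS1 with 1.99 FPKM, C1RL-AS1 with 1.98 and EXOC3-AS1 with 1.95. Genes entered the tests with a mean of at least 1 FPKM, which 121 of the 127 antisense RNAs reached. The 6 others were KLHL30-AS1, SOX21-AS1, THUMPD3-AS1, RARA-AS1, CFAP58-AS1 and VLDLR-AS1. SOX21-AS1 had 2.52 and 2.12 FPKM in the 5637 knockdown libraries and at most 0.136 elsewhere, and RARA-AS1 had 2.09 and 1.53 against at most 0.1. VLDLR-AS1 reached 2.02 FPKM with sh-LNMAT1#1 in UM-UC-3 and 1.25 in the library labelled 5637 sh-NC, with 0.0088 and 0.0284 in the 5637 knockdown libraries.

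**Figure D1:**
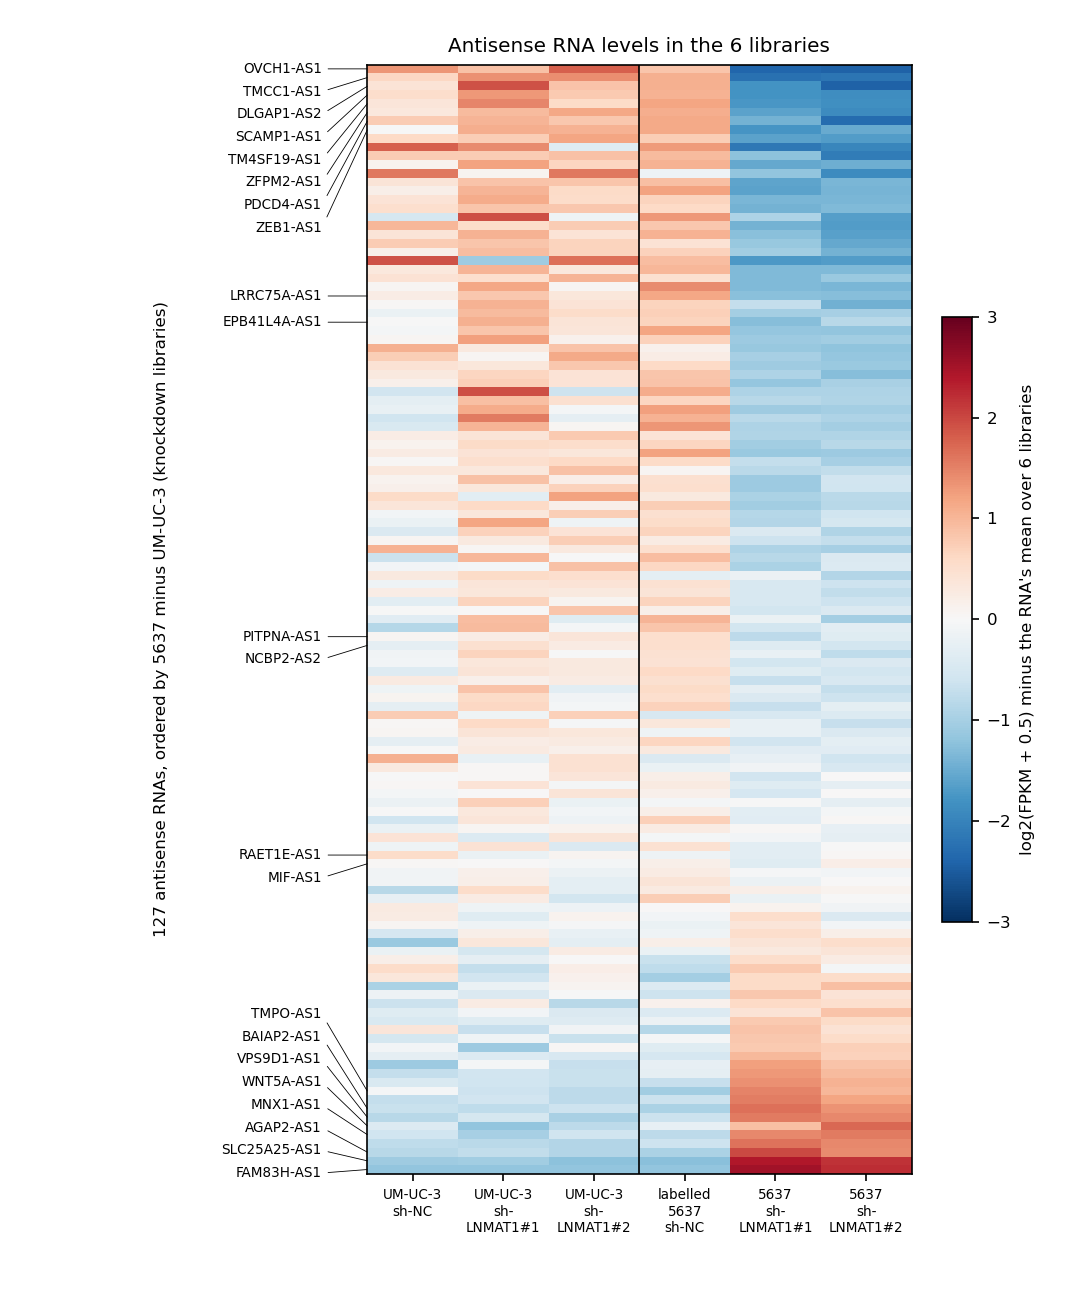
Level of the 127 antisense RNAs (vertical, ordered by the difference between 5637 and UM-UC-3 knockdown libraries) in the 6 libraries (horizontal), as log2(FPKM + 0.5) minus the mean of the RNA over the 6 libraries, with red above and blue below the mean. The column labelled 5637 sh-NC has the colors of the UM-UC-3 columns for 117 of 127 RNAs, measured as the smaller distance.

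The most abundant antisense RNA was MIF-AS1 (chr22:23894426-23898930 on GRCh38, minus strand), which ends tail to tail with the cytokine gene MIF. With sh-NC, sh-LNMAT1#1 and then sh-LNMAT1#2 in UM-UC-3 it had 45.5, 44.8 and 42.2 FPKM, followed by 49.97 in the library labelled 5637 sh-NC and 33.9 and 50.6 in the 5637 knockdown libraries. Values of both lines overlapped, and the difference between the lines did not pass the test (log2 -0.07, SE 0.25, limma adjusted p = 0.847). MIF itself lay between 106 and 172 FPKM. Of the exon bases of MIF-AS1, 46.5% overlap exons of MIF. The library kit keeps the strand, but the strand setting of the counting is not given in the sources used here, so reads of an antisense RNA and of a partner with overlapping exons cannot be told apart. This limit holds for each of the 72 pairs whose exons overlap.

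LRRC75A-AS1, a host gene of small nucleolar RNAs, had 24.3, 36.7 and 26.3 FPKM in the UM-UC-3 libraries, 47.2 in the library labelled 5637 sh-NC and 8.38 and 8.24 in the 5637 knockdown libraries. EPB41L4A-AS1, which also hosts a small nucleolar RNA, had 7.96, 17.5 and 10.7, then 13.2, then 3.07 and 4.36 FPKM in the same order. For both RNAs the 5637 knockdown values were the lowest, with no overlap with the 4 other libraries. Their partners LRRC75A and EPB41L4A stayed under 0.5 FPKM in each library. NCBP2-AS2 starts 26 bases from NCBP2, a subunit of the nuclear cap-binding complex, and had 19.4, 32.9 and 27.9 FPKM in UM-UC-3, 33.9 in the library labelled 5637 sh-NC and 17.8 and 15.9 in the 5637 knockdown libraries. NCBP2 had 7.66, 6.44 and 6.58, then 9.97, then 2.06 and 2.25 FPKM. The UM-UC-3 sh-NC value of NCBP2-AS2 lay close to the 5637 values, whereas NCBP2 was lower in both 5637 knockdown libraries than in the 4 others.

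Among the other abundant RNAs, PITPNA-AS1, which overlaps the end of a phosphatidylinositol transfer protein gene, had 14.4, 16.1 and 18.01 FPKM in UM-UC-3, 19.9 in the library labelled 5637 sh-NC, and 7.8 and 10.6 in the 5637 knockdown libraries. RAET1E-AS1, at the gene of a ligand of the NKG2D receptor, had 15.96, 9.31 and 11.4, then 9.65, then 8.54 and 11.01 FPKM. The 5637 knockdown libraries lay below the 4 others for PITPNA-AS1 and overlapped with them for RAET1E-AS1. The difference was called for neither RNA (log2 -0.87 and -0.08, limma adjusted p = 0.0338 and 0.799).

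The cell lines were compared in the 4 knockdown libraries alone, with the hairpins as replicates of a line, so that neither control library entered. A gene was called at a limma adjusted p under 0.05 and a difference of at least 2-fold, and p-values measure only the spread between these libraries. Of the 121 antisense RNAs kept, 14 were higher in 5637 (11.6%), 50 were lower (41.3%) and 57 were not called. Over all 12717 genes kept, 14.6% were higher and 14% were lower in 5637. The median log2 difference was -0.92 over the antisense RNAs and -0.05 over all genes. These shares cannot be read against each other, since the RNAs were selected on a highest value and 4 of the 6 libraries resembled UM-UC-3. Long intergenic genes with a LINC symbol and the same limit of 2 FPKM were 83, of which 77 were kept, 12 higher and 40 lower, with a median of -1.20. The 121 different partner genes, not selected on level, had 95 kept, 16 higher and 17 lower, with a median of -0.11.

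The numbers of calls depended on the libraries. With the 6 libraries as labelled and knockdown as a covariate, limma called 0 antisense RNAs in either direction (29 at an unadjusted p under 0.05), against 1 of all genes higher and 0 lower. Without 5637 sh-LNMAT1#1 it called 10 higher and 20 lower, beside 781 and 467 of all genes, and without 5637 sh-LNMAT1#2 10 higher and 16 lower, beside 792 and 464. Choosing the RNAs and the filter from the 5 other libraries, without the library labelled 5637 sh-NC, gave 120 RNAs, of which 113 were tested, 15 higher and 44 lower, beside 1946 higher and 1737 lower of 12748 genes. Of the 64 called RNAs, 26 were called in each fit that left out 1 of the 4 libraries, and 0 in every alternative. The count of 26 has no count over all genes beside it and is a description. Each of the 64 kept the sign of its difference in the alternatives that tested it. The alternatives reuse the libraries in which the RNAs were called, so a kept sign is no independent check. The next count treats the lines alike. Among genes with an antisense symbol, 62 reached 2 FPKM in both UM-UC-3 knockdown libraries and 40 in both 5637 knockdown libraries, 23 of them in all 4. Genes with a LINC symbol numbered 48 and 30 in the same order, 15 of them in all 4, so the lower count in 5637 was not particular to antisense symbols. Over all genes the numbers were 8851 and 9569.

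Among the large differences below 0 were those of OVCH1-AS1, TMCC1-AS1 and DLGAP1-AS2, whose order changed with the pseudocount. OVCH1-AS1 (chr12:29389289-29487488) overlaps the end of OVCH1, a gene of the serine protease family, and had 6.81, 4.85 and 9.73 FPKM in UM-UC-3, 4.7 in the library labelled 5637 sh-NC, and 0.0611 and 0.0438 in the 5637 knockdown libraries. The 5637 values rest on at most 8.66 and 5.77 fragments, taking all exons as the length, and lay far under the 4 other values (log2 -3.74, SE 0.35, adjusted p = 0.00122 by limma). TMCC1-AS1 starts 205 bases from TMCC1, which encodes a membrane protein of the endoplasmic reticulum, and had 3.84, 6.78 and 6.9, then 5.45, then 0.0999 and 0.117 FPKM. It was 12.1-fold lower in 5637 on this scale (SE 0.20 log2, adjusted p = 0.000274), with the 5637 knockdown libraries below the 4 others. TMCC1, on the opposite strand, was at 2.97, 2.26 and 3.63, then 1.7, then 4.41 and 5.52 FPKM and was not called (log2 0.69, adjusted p = 0.105).

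DLGAP1-AS2 lies inside DLGAP1, a gene for a synaptic scaffold protein, and had 11.6, 33.9 and 16.05 FPKM in UM-UC-3, 18.5 in the library labelled 5637 sh-NC and 2.12 and 1.19 in the 5637 knockdown libraries. Its UM-UC-3 values were themselves spread, with the highest in sh-LNMAT1#1, yet each was above both 5637 values (11.3-fold lower, adjusted p = 0.0029). DLGAP1-AS1, in the same gene, had 4.47, 4.73 and 4.14, then 3.46, then 0.827 and 0.519 FPKM and was also lower (4.24-fold, adjusted p = 0.00235), while DLGAP1 did not exceed 0.0471 FPKM. The calls of DLGAP1-AS2 and DLGAP1-AS1 were lost without 5637 sh-LNMAT1#2, where the log2 difference of DLGAP1-AS2 was -3.19. ZFPM2-AS1, at the gene of a cofactor of GATA factors, had 7.82, 12.4 and 14.4 FPKM, then 13.7, then 1.72 and 1.3, a 6.95-fold lower level in 5637 (adjusted p = 0.000678). PDCD4-AS1, whose start is 438 bases from that of the translation inhibitor PDCD4, had 5.93, 7.21 and 6.16, then 7.85, then 0.927 and 0.265 FPKM, the last from 4 fragments. Its log2 difference was -2.78 (adjusted p = 0.00323), and that of PDCD4 was -1.09 and not called (adjusted p = 0.172). For the RNAs of this paragraph the 5637 knockdown libraries were below the 4 other libraries without overlap.

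SCAMP1-AS1 and SCAMP1, a gene for a secretory carrier membrane protein, are transcribed away from each other. SCAMP1-AS1 had 9.01, 16.00 and 10.9 FPKM in UM-UC-3, 13.2 in the library labelled 5637 sh-NC and 1.41 and 1.33 in the 5637 knockdown libraries, where SCAMP1 had 8.96, 12.8 and 9.8, then 12.3, then 7.21 and 7.3. The antisense RNA was 7.33-fold lower in 5637 (log2 -2.87, SE 0.25, limma adjusted p = 0.00096) and the partner was not called (log2 -0.59, SE 0.22, adjusted p = 0.0839). TM4SF19-AS1 had 2.28, 5.48 and 2.7, then 4.4, then 0.147 and 0.0987 FPKM, a 7.03-fold lower level (adjusted p = 0.00311). Its call was lost in 4 alternatives, among them leaving out either 5637 knockdown library. The log2 difference was -2.87 without 5637 sh-LNMAT1#1 and -2.76 without 5637 sh-LNMAT1#2. TM4SF19, a membrane protein gene whose exons cover 25.2% of the antisense RNA, had 6.3, 16.8 and 6.06, then 17.6, then 0.199 and 0 FPKM and was lower too (log2 -4.17, adjusted p = 0.00277). Both antisense RNAs and TM4SF19 did not overlap between the 5637 knockdown libraries and the rest.

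The promoters of these RNAs and of MNX1-AS1 and VPS9D1-AS1, both higher in 5637, are shown because in these pairs the antisense RNA was called together with its partner (TM4SF19), with a partner not called (SCAMP1 and VPS9D1) or with one too low to be kept (MNX1). They are RefSeq windows on GRCh38.p14 from 250 bases before to 50 after the annotated start, 5′ to 3′ on the strand of the antisense RNA. The TATA box was searched as TATAAA or its complement spelled TTTATA, and the CCAAT box as CCAAT or its complement spelled ATTGG. The GC box was searched as GGGCGG or its complement spelled CCGCCC, and overlapping matches were included. Capitals mark each match. The window of SCAMP1-AS1 is chr5:78360492-78360791 on the minus strand and holds the start of SCAMP1 at 78360583. That of TM4SF19-AS1 is chr3:196318082-196318381 on the plus strand. The window of MNX1-AS1, chr7:157010607-157010906 on the plus strand, holds the start of MNX1 at 157010651. That of VPS9D1-AS1, chr16:89711606-89711905 on the plus strand, has 5 matches to CCGCCC.
SCAMP1-AS1: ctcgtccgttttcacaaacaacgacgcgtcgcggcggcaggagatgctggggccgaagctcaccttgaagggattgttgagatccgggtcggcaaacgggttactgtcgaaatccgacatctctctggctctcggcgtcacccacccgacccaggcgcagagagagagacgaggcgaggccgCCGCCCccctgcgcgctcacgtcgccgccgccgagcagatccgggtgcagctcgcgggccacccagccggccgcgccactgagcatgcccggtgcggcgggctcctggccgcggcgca
TM4SF19-AS1: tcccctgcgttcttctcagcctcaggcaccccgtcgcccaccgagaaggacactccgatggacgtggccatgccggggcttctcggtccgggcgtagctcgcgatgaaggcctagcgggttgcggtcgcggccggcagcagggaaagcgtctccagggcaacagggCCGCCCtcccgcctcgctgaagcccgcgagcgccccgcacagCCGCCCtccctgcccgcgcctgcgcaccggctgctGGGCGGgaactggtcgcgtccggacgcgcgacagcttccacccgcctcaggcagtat
MNX1-AS1: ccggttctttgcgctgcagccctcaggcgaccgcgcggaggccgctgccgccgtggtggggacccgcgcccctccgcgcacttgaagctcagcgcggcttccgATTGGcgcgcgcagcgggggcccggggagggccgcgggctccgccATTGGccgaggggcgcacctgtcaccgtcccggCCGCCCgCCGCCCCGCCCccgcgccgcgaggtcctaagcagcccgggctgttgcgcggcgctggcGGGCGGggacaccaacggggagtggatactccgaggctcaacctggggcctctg
VPS9D1-AS1: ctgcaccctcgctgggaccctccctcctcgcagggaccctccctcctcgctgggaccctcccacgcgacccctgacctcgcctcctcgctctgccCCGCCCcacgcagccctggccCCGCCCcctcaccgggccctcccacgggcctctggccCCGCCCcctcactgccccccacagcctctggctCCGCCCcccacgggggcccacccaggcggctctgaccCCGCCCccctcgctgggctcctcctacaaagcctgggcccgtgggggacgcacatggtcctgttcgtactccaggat

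RefSeq windows were found for 83 of the 127 antisense RNAs, 95 in number. TATAAA, on either strand, was in 6.32% of them and in 11.5% of all 35116 windows. For CCAAT, also on either strand, the shares were 28.4% and 34.6%, and for GGGCGG 52.6% and 45.0%. The median number of CG dinucleotides was 22 in the windows of the antisense RNAs and 14 in all windows. For 13 of the 83 RNAs a window held the annotated start of the partner gene. A match describes the letters of the window and no binding site.

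Of the RNAs higher in 5637, FAM83H-AS1 was listed at 0 FPKM in the 3 UM-UC-3 libraries and in the library labelled 5637 sh-NC, and at 5.98 and 4.81 FPKM in the 5637 knockdown libraries. Its identifier belongs in GENCODE release 29 to a longer protein-coding gene with the symbol IQANK1 and the same start, so no bound on the fold is given from its length. FAM83H, which starts 339 bases from that start and encodes a protein of the keratin cytoskeleton, was at most 0.00969 FPKM in the same 4 libraries and 32.7 and 31.9 in the 5637 knockdown libraries, so that both genes of the pair were present in these 2 libraries and at or near 0 in the rest.

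SLC25A25-AS1 had 0.196, 0.211 and 0.123 FPKM in UM-UC-3, 0.112 in the library labelled 5637 sh-NC and 7.15 and 6.06 in the 5637 knockdown libraries, from 31, 30, 18, 16, 950 and 750 fragments. Its partner SLC25A25, a mitochondrial carrier of ATP and phosphate, had 1.11, 1.96 and 1.7, then 1.34, then 6.45 and 5.83 FPKM. Both were higher in the 5637 knockdown libraries than in the 4 others, the antisense RNA 10.6-fold (SE 0.22 log2, limma adjusted p = 0.000376) and the partner 2.85-fold (adjusted p = 0.00419). AGAP2-AS1, inside a gene for a GTPase-activating protein, rested on 3, 4, 2 and 1 fragments in the UM-UC-3 libraries and the library labelled 5637 sh-NC, and on 110 and 65 in the 5637 knockdown libraries (3.53 and 2.24 FPKM). MNX1-AS1, beside the homeobox gene MNX1, had 0.505, 0.259 and 0.502, then 0.385, then 3.6 and 3.97 FPKM, and MNX1 had 0.27, 0.392 and 0.425, then 0.267, then 2.12 and 1.63. The log2 differences were 2.5 for AGAP2-AS1 (adjusted p = 0.00207) and 2.30 for MNX1-AS1 (adjusted p = 0.00179), and the fitted size of such low RNAs depends on the added 0.5.

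WNT5A-AS1, inside the gene of the Wnt ligand WNT5A, had 0.81, 0.269 and 0.523 FPKM in UM-UC-3, 0.98 in the library labelled 5637 sh-NC, and 2.79 and 5.26 in the 5637 knockdown libraries. BAIAP2-AS1 had 0.601, 0.535 and 0.627, then 0.405, then 4.99 and 3.9 FPKM, and starts 241 bases from BAIAP2, which encodes an adaptor of membrane protrusions. In these pairs the partner was higher in 5637 as well (WNT5A log2 1.77, adjusted p = 0.0105; BAIAP2 log2 1.43, adjusted p = 0.00606, both by limma). VPS9D1-AS1 had 0.136, 0.284 and 0.0812, then 0.232, then 2.83 and 2.58 FPKM, while VPS9D1, the gene it lies in, ranged from 2.04 to 2.79 FPKM with both extremes in 5637. TMPO-AS1, which shares its start region with the nuclear lamina gene TMPO, had 1.07, 0.57 and 0.458, then 0.294, then 4.12 and 2.79 FPKM, and TMPO had 13.97, 8.1 and 9.37, then 9.996, then 14.9 and 11.7. VPS9D1-AS1 was 4.74-fold higher (adjusted p = 0.00215) and TMPO-AS1 3.85-fold higher (adjusted p = 0.00396), and neither partner was called (VPS9D1 log2 -0.02, adjusted p = 0.944; TMPO log2 0.57, adjusted p = 0.0952).

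**Figure D2:**
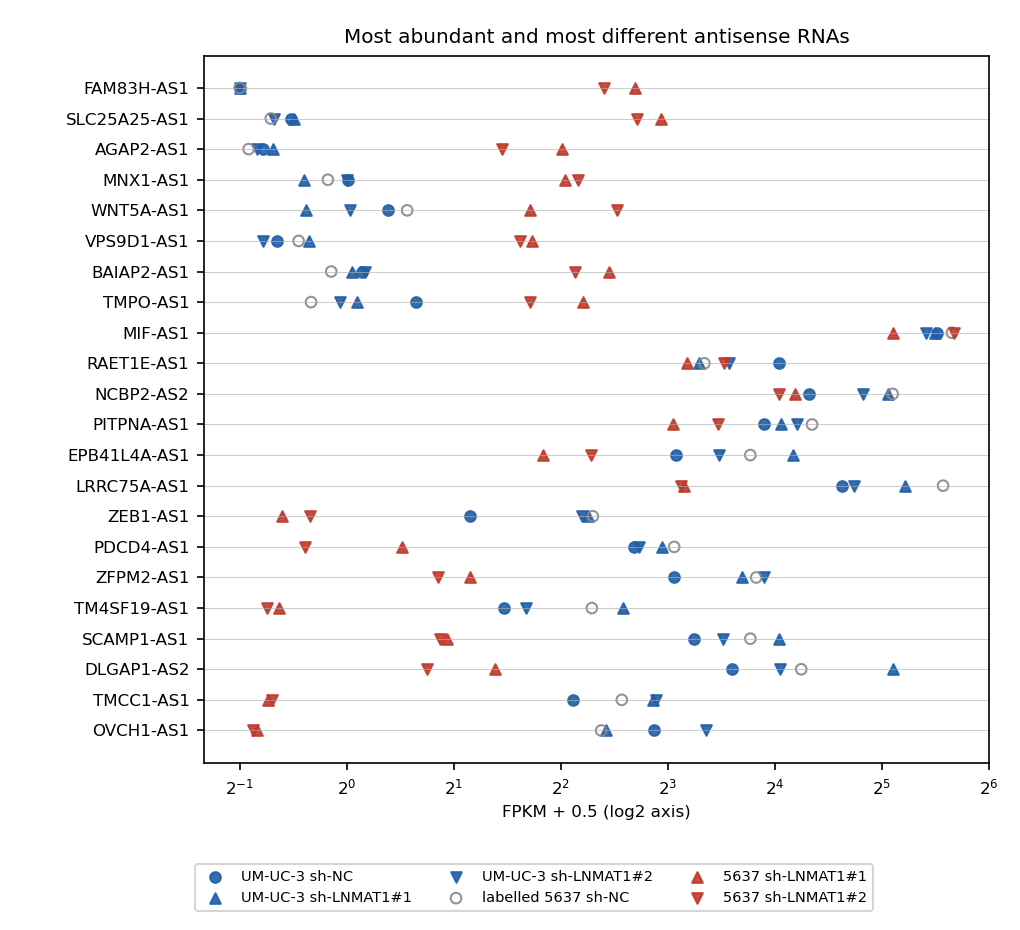
FPKM + 0.5 on a log2 axis (horizontal) of 9 of the 10 most abundant antisense RNAs and of the 8 with the largest line difference in each direction (vertical), 1 symbol per library. The open circle, the library labelled 5637 sh-NC, lies with the blue UM-UC-3 symbols for RNAs such as SCAMP1-AS1 (13.2 FPKM) and SLC25A25-AS1 (0.112 FPKM).

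Each antisense RNA was then set beside its partner, the gene whose symbol remains without the suffix. A partner was found for 124 of the 127, with 121 different genes. HOXD-AS2 and HOXB-AS1 are named for clusters of homeobox genes and have no single partner, and JHDM1D-AS1 carries an older symbol of KDM7A. By GENCODE positions, 38 pairs were head to head with overlap and 29 head to head without overlap, that is transcribed away from starts that lie side by side, 32 had 1 gene inside the other, and 24 were tail to tail. The start sites were within 1 kb in 20, 28, 1 and 0 of these pairs. The antisense RNA had a higher mean FPKM than its partner in 42 of 124 pairs. The median ratio of the means was 0.477 for head-to-head pairs with overlap, 0.461 for those without, 0.673 for nested pairs and 0.764 for tail-to-tail pairs. The level ratio rests on the selection of the antisense RNAs by level and is a description. The remaining pair, HNRNPU-AS1 and HNRNPU, was not placed because the antisense RNA was not matched in GENCODE release 29.

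**Figure D3:**
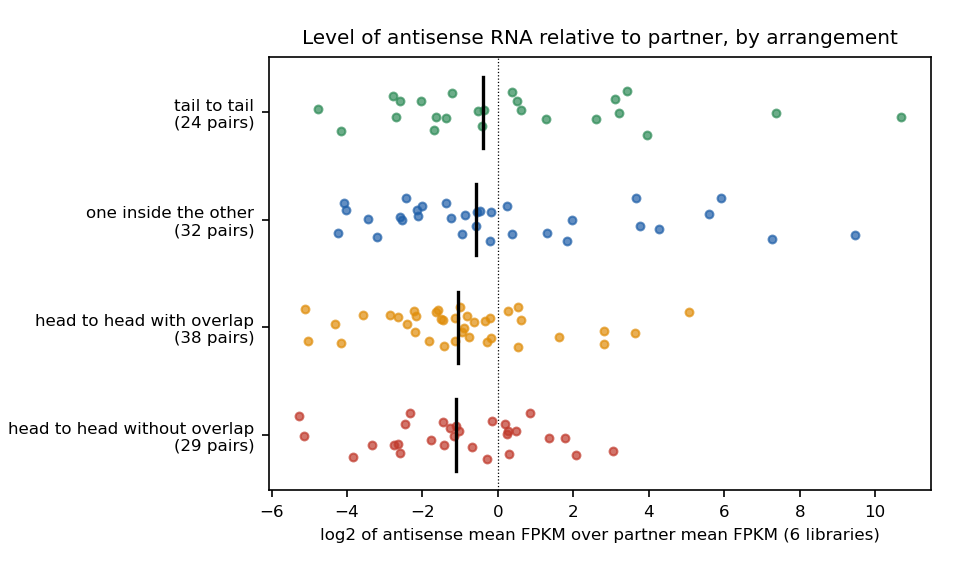
Log2 of the mean FPKM of the antisense RNA over that of its partner, over the 6 libraries (horizontal), for the pairs of each arrangement (vertical), with 1 point per pair, points spread vertically for legibility and a black bar at the median. Medians of the ratio were below 1 in the 4 arrangements, from 0.461 to 0.764.

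In the comparison of the lines, the antisense RNA and its partner differed in the same direction in 80 of 124 pairs (64.5%). Across the pairs Pearson's r of the log2 differences was 0.45 and Spearman's rho 0.45, with n = 124 pairs that share the 4 libraries, and genes are not independent replicates. For the 51 pairs without overlapping exons, in which reads cannot be shared in the annotation, 33 moved in the same direction with r = 0.56 and rho = 0.36, and for the 72 with overlapping exons 47 did, with r = 0.39 and rho = 0.50. Of 17 pairs with both genes called, 15 had the same direction. The 7 higher in 5637 included the pairs of FAM83H, SLC25A25, WNT5A and BAIAP2, and those of the mitochondrial transhydrogenase NNT, of EMC3 and of RHPN1. The 8 lower ones were the pairs of VIM, ZEB1, TM4SF19, TM4SF1, MME, HHIP, NEXN and FRMD6. Of these 15 pairs, some antisense RNAs lost the call when either 5637 knockdown library was left out. They were EMC3-AS1, NNT-AS1, RHPN1-AS1, FRMD6-AS1, HHIP-AS1, TM4SF1-AS1, TM4SF19-AS1 and VIM-AS1. A further 23 antisense RNAs were lower and 3 higher in 5637 with a partner that was tested and not called. Where the antisense RNA was tested and not called, the partner was higher in 5 pairs and lower in 8. In 37 pairs neither gene was called. No count for other pairs of genes stands beside these numbers.

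VIM-AS1 and ZEB1-AS1 belong to partners among the mesenchymal-like markers. VIM encodes the intermediate filament protein vimentin, and VIM-AS1 had 8.2, 6.19 and 1.45 FPKM in UM-UC-3, 5.63 in the library labelled 5637 sh-NC and 0.0667 and 0.143 in the 5637 knockdown libraries. Its level with sh-LNMAT1#2 in UM-UC-3 stood apart from the other UM-UC-3 values, and the 5637 values were lower still (log2 -2.58, SE 0.58, limma adjusted p = 0.0219). The call of VIM-AS1 was lost in 4 alternatives, among them leaving out either 5637 knockdown library. Its log2 difference was -1.69 without UM-UC-3 sh-LNMAT1#1 and -3.47 without UM-UC-3 sh-LNMAT1#2. VIM differed by -4.90 (SE 0.22, adjusted p = 0.000187). ZEB1 encodes a repressor of epithelial genes. ZEB1-AS1 had 1.72, 4.29 and 4.09, then 4.43, then 0.157 and 0.289 FPKM, and ZEB1 had 12.5, 12.7 and 8.67, then 12.6, then 0.0264 and 0.00774. Both were lower in the 5637 knockdown libraries than in the 4 others, ZEB1-AS1 6.51-fold (adjusted p = 0.000747) and ZEB1 by -4.41 on the log2 scale (adjusted p = 0.000297). Exons of the partner overlap 32.2% of the exon bases of VIM-AS1 and 9.55% of those of ZEB1-AS1.

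In 2 pairs the genes were called in opposite directions. ADIRF-AS1 had 3.13, 5.17 and 3.2 FPKM in UM-UC-3, 5.22 in the library labelled 5637 sh-NC and 0.656 and 0.389 in the 5637 knockdown libraries, whereas ADIRF, an adipogenesis regulatory factor, had 0.0301, 0.1 and 0.0973, then 0.0332, then 20.9 and 27.98. ZSCAN16-AS1 had 1.08, 1.83 and 1.39, then 2.1, then 0.143 and 0.223 FPKM, and the zinc finger gene ZSCAN16 had 0.0305, 0.0338 and 0.0328, then 0.0336, then 7.02 and 5.87. Only the value of 2.1, which belongs to the 5637 sh-NC label, took ZSCAN16-AS1 past the selection limit. A choice of RNAs that leaves this library out does not hold ZSCAN16-AS1, so its pair rests on a library that resembled UM-UC-3. In both pairs the antisense RNA was the higher gene in 4 libraries and the partner the higher gene in the 5637 knockdown libraries. The log2 differences were -2.18 for ADIRF-AS1 and 5.37 for ADIRF (limma adjusted p = 0.00451 and 0.000172), and -1.62 for ZSCAN16-AS1 and 3.70 for ZSCAN16 (adjusted p = 0.00552 and 0.000301). The call of ADIRF-AS1 was lost in 4 alternatives, among them leaving out either 5637 knockdown library, and that of ZSCAN16-AS1 in 2. These genes were picked after their values were seen. LCMT1-AS1, also picked in this way, starts 174 bases from the methyltransferase gene LCMT1 and had 1.42, 3.58 and 2.29, then 3.17, then 0.109 and 0.146 FPKM (adjusted p = 0.00214). LCMT1 had 3.08, 4.15 and 4.6, then 4.69, then 4.69 and 4.63 FPKM and was not called (log2 0.08, SE 0.19). LLPH-AS1 was listed at 0 FPKM in both 5637 knockdown libraries and at 2.31 and 1.4 in the UM-UC-3 knockdown libraries, at least 9.96-fold lower for sh-LNMAT1#1 in 5637 than in UM-UC-3 and at least 5.63-fold lower for sh-LNMAT1#2, against a floor of 3 fragments that covers counting error only, while LLPH lay between 3.75 and 6.28 FPKM. KLHL30-AS1 was also at 0 in both, with 0.13, 3.08 and 0.112 FPKM in UM-UC-3 and 1.54 in the library labelled 5637 sh-NC.

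**Figure D4:**
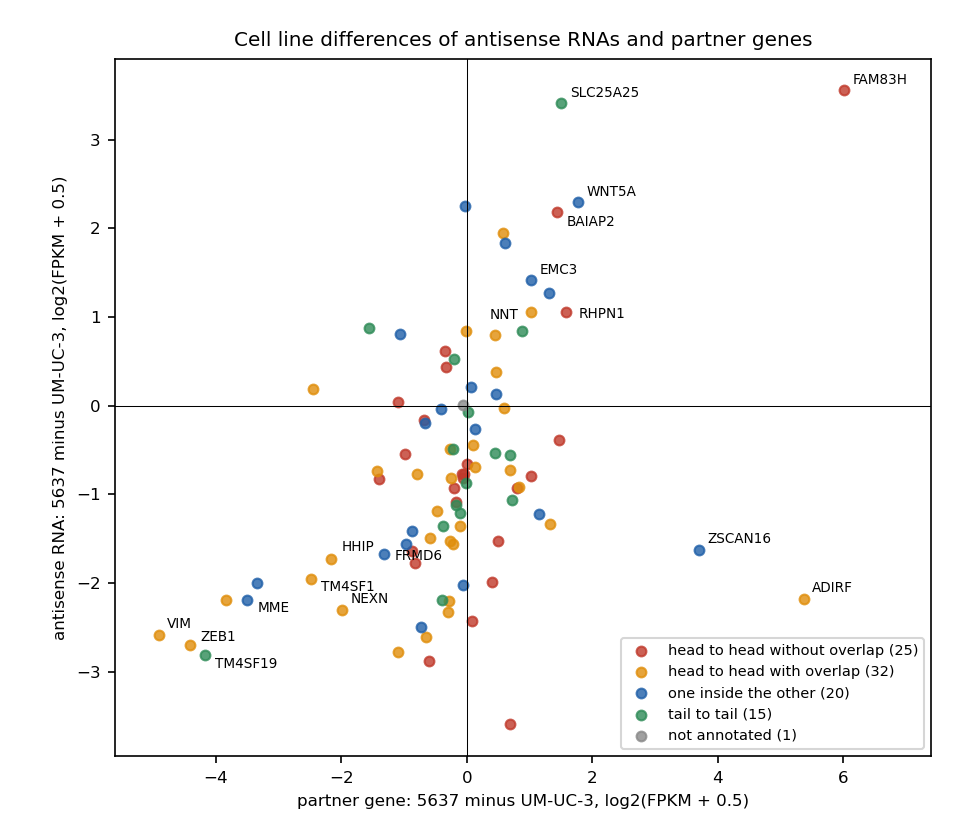
Difference between 5637 and UM-UC-3 knockdown libraries in log2(FPKM + 0.5) of the partner gene (horizontal) and of the antisense RNA (vertical), for the 93 pairs with both genes kept, colored by arrangement, with names where both genes were called. Of the 17 named pairs, 15 lie in the quadrants of equal direction, and ADIRF and ZSCAN16 lie at lower right.

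HOXD-AS2 and HOXB-AS1, the antisense RNAs named for HOX clusters that reached 2 FPKM, both had lower values in the 5637 knockdown libraries. HOXA-AS2, which stayed under that limit, had higher values there (1.43 and 1.30 FPKM, against at most 0.177 elsewhere). HOXD-AS2 had 5.38, 4.93 and 5.26 FPKM in UM-UC-3, 6.29 in the library labelled 5637 sh-NC and 2.51 and 2.95 in the 5637 knockdown libraries, and HOXB-AS1 had 3.72, 1.64 and 2.01, then 2.4, then 0.584 and 0.527. HOXB-AS1 was called (log2 -1.13, limma adjusted p = 0.0133), a call lost in 5 alternatives, among them a pseudocount of 1 and leaving out either 5637 knockdown library. HOXD-AS2 differed by less than 2-fold (log2 -0.80, adjusted p = 0.0307). JHDM1D-AS1 and KDM7A, a histone demethylase gene that starts beside it, were lower together. The antisense RNA had 2.38, 4.17 and 2.36, then 4.06, then 0.424 and 0.412 FPKM, with a log2 difference of -1.99 (adjusted p = 0.0059), and KDM7A differed by -1.93 (adjusted p = 0.00694). The call of JHDM1D-AS1 was lost in 4 alternatives, among them leaving out either 5637 knockdown library.

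Whether the antisense RNAs changed with LNMAT1 knockdown was asked first in UM-UC-3, where a gene was counted when each hairpin moved it by 2-fold or more and both moved it the same way, with no test. Of the 121 RNAs kept, 1 was higher (0.826%) and 0 were lower, beside 0.967% and 0.346% of the 12717 genes kept. The hairpins share the sh-NC library. ZEB1-AS1, the RNA that was higher, had 1.72 FPKM with sh-NC, 4.29 with sh-LNMAT1#1 and 4.09 with sh-LNMAT1#2 (log2 differences 1.11 and 1.05). ZEB1 had 12.5, 12.7 and 8.67 FPKM in the same order, with differences of 0.02 and -0.50. The change of ZEB1-AS1 just passed the limit and dropped under it with a pseudocount of 1 in place of 0.5, where the smaller difference was 0.90. Taken alone, sh-LNMAT1#1 gave 20 of the 121 RNAs at least 2-fold higher and 5 lower, beside 658 higher and 633 lower of the 12717 genes kept. For sh-LNMAT1#2 the numbers were 2 and 1 of the RNAs, beside 237 and 169 of all genes kept.

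Some RNAs had values in UM-UC-3 that differed between the hairpins. LURAP1L-AS1 had 0.912, 7.08 and 1.31 FPKM with sh-NC, sh-LNMAT1#1 and then sh-LNMAT1#2, GABPB1-AS1 had 2.07, 10.9 and 2.71, and RGMB-AS1 had 6.17, 0.354 and 5.08. VIM-AS1 was lower with sh-LNMAT1#2 (log2 -2.16) and less so with sh-LNMAT1#1 (-0.38), while VIM was lower with both (-1.52 with sh-LNMAT1#1 and -1.10 with sh-LNMAT1#2). For LURAP1L-AS1 and its partner LURAP1L the values went the same way with sh-LNMAT1#1 (log2 2.42 and 3.10), and LURAP1L was also higher with sh-LNMAT1#2 (2.15). GABPB1, which starts 449 bases from GABPB1-AS1, had 2.89, 3.03 and 3.48 FPKM and moved little. In the library labelled 5637 sh-NC GABPB1-AS1 had 7.48 FPKM and LURAP1L-AS1 4.41, between the UM-UC-3 sh-NC and sh-LNMAT1#1 values. LURAP1L-AS1, GABPB1-AS1 and RGMB-AS1 were picked after their values were seen. Over the 124 pairs, the mean change of both hairpins had the same direction in antisense RNA and partner in 64, with r = 0.34 and rho = 0.22 across pairs that share 3 libraries.

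Against the library labelled 5637 sh-NC, the 5637 knockdown libraries had 15 antisense RNAs at least 2-fold higher with both hairpins (12.4%) and 56 lower (46.3%), beside 15.9% and 14.2% of all genes kept. These numbers rest on that library, which resembled UM-UC-3, and without it 5637 has no control. The RNAs that were lower with both hairpins included DLGAP1-AS2 (log2 -2.86 with sh-LNMAT1#1 and -3.49 with sh-LNMAT1#2), TMCC1-AS1 (-3.31 and -3.27) and VIM-AS1 (-3.44 and -3.25). Those that were higher included SLC25A25-AS1 (3.64 and 3.42) and FAM83H-AS1, listed at 0 in the library labelled 5637 sh-NC. In UM-UC-3 the same RNAs gave 1.51 and 0.45 for DLGAP1-AS2, 0.75 and 0.77 for TMCC1-AS1, -0.38 and -2.16 for VIM-AS1, and 0.03 and -0.16 for SLC25A25-AS1. ZEB1-AS1 was higher in UM-UC-3 and lower in 5637 (-2.91 and -2.64).

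**Figure D5:**
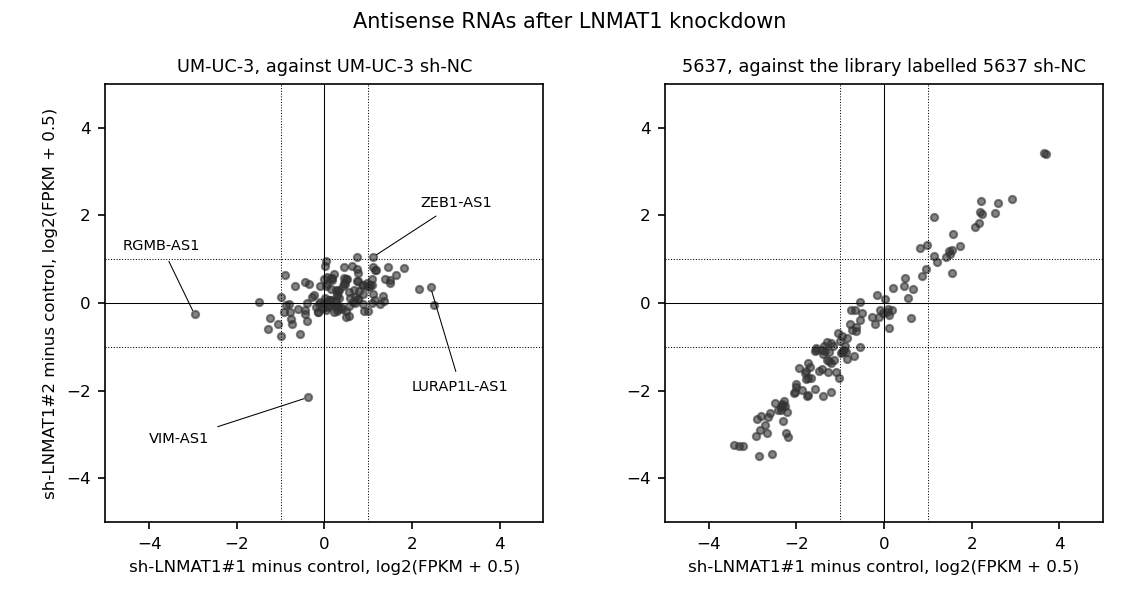
Change of each of the 127 antisense RNAs with sh-LNMAT1#1 (horizontal) and sh-LNMAT1#2 (vertical) in log2(FPKM + 0.5), against UM-UC-3 sh-NC (left) and against the library labelled 5637 sh-NC (right), with dotted lines at 2-fold. On the left ZEB1-AS1 alone lies past 2-fold with both hairpins (1.11 and 1.05), and on the right 56 of the RNAs kept lie past it below and 15 above, and the points of a panel share a control.

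With both lines pooled and the line in the model, limma called 0 of the 121 antisense RNAs for knockdown (6 at an unadjusted p under 0.05), and 0% of all genes kept (811 at an unadjusted p under 0.05). Without UM-UC-3 sh-NC, when the library labelled 5637 sh-NC is the only control, it called 69 of the antisense RNAs and 3947 of all genes. A test of whether the knockdown difference differs between the lines called 57 of the antisense RNAs (limma adjusted p under 0.05), beside 18.8% of all genes kept. That test takes its spread from the hairpins and rests on the library labelled 5637 sh-NC, which resembled UM-UC-3. By its arithmetic it holds the line difference of the knockdown libraries minus the difference between the control libraries, so line and knockdown cannot be told apart in it, and nothing about knockdown is read from it.

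Lists of related genes were counted in the line comparison. Of 26 antisense RNAs with described roles 25 were found and 14 kept, with 2 higher in 5637 (VPS9D1-AS1 and TMPO-AS1) and 4 lower (ZEB1-AS1, DLGAP1-AS1, FOXD2-AS1 and SLC16A1-AS1) and a median log2 difference of -0.50. These were 14.3% and 28.6% of the 14 kept, beside 14.6% and 14% of all genes kept. FOXD2-AS1 had 3.16, 4.15 and 3.47 FPKM in UM-UC-3, 4.8 in the library labelled 5637 sh-NC and 1.07 and 0.72 in the 5637 knockdown libraries (adjusted p = 0.00551 by limma), and SLC16A1-AS1 had 1.28, 1.58 and 2.31, then 1.53, then 0.6 and 0.532 (adjusted p = 0.0167). Both lay lower in the 5637 knockdown libraries than in the 4 others. The call of SLC16A1-AS1 was lost in 6 alternatives, among them a pseudocount of 1 and 3 of the 4 fits without a library, and that of FOXD2-AS1 in 4. OIP5-AS1, FGD5-AS1 and PSMA3-AS1, among the better known of the list, were not called (log2 0.84, -0.30 and -0.49). Of 22 genes that bind, edit or sense double-stranded RNA 19 were kept, with 1 called higher (5.26%) and 0 lower, and a median of -0.20. DDX58, the sensor RIG-I, picked after its values were seen, had 125, 21.4 and 157 FPKM in UM-UC-3, 7.93 in the library labelled 5637 sh-NC, and 8.94 and 6.98 in 5637. OAS1, OAS2, OAS3 and IFIH1 of the same list, also picked in this way, likewise had their lowest UM-UC-3 value with sh-LNMAT1#1. The line difference of DDX58 was not called (log2 -2.80, adjusted p = 0.0582). Of 25 symbols of the nuclear exosome and its adaptors 23 were found and kept, with 0 higher and 3 lower (13.0%, beside 14% of all genes kept). The 3 were the subunits EXOSC1 (log2 -1.03, adjusted p = 0.0197), EXOSC5 (-1.17, adjusted p = 0.00831) and EXOSC8 (-1.40, adjusted p = 0.00576), and the median of the list was -0.30.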

How the data were processed

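The authors deposited FPKM per gene for 6 libraries in 1 table of 50869 genes, of which 1 without values was left out. The submitters' processing notes name hg38 and HISAT2, and the counting program, annotation and strand setting are not given in the sources used here. Python 3.11.15 with pandas 2.3.3, numpy 2.4.6, scipy 1.17.1 and matplotlib 3.10.9, together with limma 3.58.1 under R 4.3.3, did the work. Depth was recovered from genes with a single exon, where FPKM times length is a whole number of fragments within 0.05, for 99.95% or more of the values of each library. Fragments of genes with several exons were given as a range, from the length of the shortest transcript to that of all exons. Differences are in log2(FPKM + 0.5), which understates changes of low genes, and a gene was kept when its 6 values averaged 1 FPKM or more.

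The line comparison (limma with lmFit and a trend in eBayes) used the 4 knockdown libraries and had 2 residual degrees of freedom, the pooled comparison 3 and the interaction 2. P-values were adjusted by Benjamini-Hochberg over all genes kept. Nothing says that libraries came from separate cultures. Knockdown within a line was not tested. The scripts were tested on simulated data. By rule, names went to the 10 most abundant antisense RNAs, the 8 called with the largest line difference in each direction, at most 6 changed at least 2-fold with both hairpins in each line and direction, those of HOX clusters, the 3 on each side of the limit, their partners, LINC01296, and called genes of the lists, and 1 item is not reported here. Alternatives were 0.1 or 1 as the pseudocount, a filter of 5 FPKM or none, scaling to the 75th percentile, no trend, the hairpin as a replicate block, 5 or 6 libraries in the line comparison, a 1.5-fold limit, each hairpin alone, no line covariate, limits of 1 and 5 FPKM for the antisense RNAs, and leaving out each library in turn. Leaving out the library labelled 5637 sh-NC when the antisense RNAs were chosen was added after the data were seen, once for the line comparison and once for the pairs, as 2 alternatives. The antisense RNAs and gene lists were chosen with earlier results of these data known.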

Additional observations from a re-analysis of the deposited data

Results flagged for a closer look

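Limma's interaction term is the log2 change in 5637 minus that in UM-UC-3 with both hairpins averaged, on 2 residual degrees of freedom. It was called for 57 of the 121 antisense RNAs kept, and 19 of them are listed here. The list is not complete for the RNAs named above. The term was also called for ADIRF-AS1 (-2.83), FOXD2-AS1 (-2.17) and DLGAP1-AS1 (-1.76), for example. The 5637 change was taken against the library labelled 5637 sh-NC, which resembled UM-UC-3, and many of these RNAs were named for their line difference. By its arithmetic the term is the line difference of the knockdown libraries minus the difference between the control libraries, and its size was near the line difference for some RNAs (SLC25A25-AS1 3.60 beside 3.41), and for others larger (RHPN1-AS1 2.28 beside 1.06, NCBP2-AS2 -1.61 beside -0.83) or smaller (OVCH1-AS1 -3.25 beside -3.74). Line and knockdown cannot be told apart in it, and the values are descriptions. Among the abundant RNAs the difference was -2.78 for LRRC75A-AS1, -1.61 for NCBP2-AS2, -4.16 for DLGAP1-AS2, -2.46 for EPB41L4A-AS1, -3.40 for SCAMP1-AS1 and -3.57 for ZFPM2-AS1. Among the other RNAs with a lower level in 5637 it was -3.25 for OVCH1-AS1, -4.05 for TMCC1-AS1, -3.63 for TM4SF19-AS1, -3.15 for PDCD4-AS1 and -3.85 for ZEB1-AS1. For the RNAs with a higher level in 5637 it was 3.55 for FAM83H-AS1, 3.60 for SLC25A25-AS1, 2.63 for AGAP2-AS1, 2.48 for MNX1-AS1, 2.04 for VPS9D1-AS1, 2.47 for BAIAP2-AS1, 2.93 for TMPO-AS1 and 2.28 for RHPN1-AS1. Without the library labelled 5637 sh-NC the term cannot be had.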

How the results depend on the processing

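In the line comparison, the antisense RNAs called higher and lower in 5637 were 0 and 0 with the 6 libraries as labelled (all genes 1 and 0), 0 and 7 with a filter of 5 FPKM (697 and 890 of all genes; 20 antisense RNAs tested), and 8 and 12 with no filter (1118 and 657 of all genes; 50868 genes tested). Leaving out each library in turn gave 10 to 15 antisense RNAs higher and 16 to 56 lower, and 781 to 2069 and 464 to 1913 of all genes, and the library left alone in its line was assumed to vary like the others. With the hairpin as a replicate block the counts were 15 and 57 (all genes 1953 and 1918). Pseudocounts, scaling and no trend left the counts within 1.5 times, and the share of lower among called antisense RNAs was 78.1% without and 78.1% with 75th-percentile scaling. In UM-UC-3, antisense RNAs higher with both hairpins were 6 with a pseudocount of 0.1 (all genes 199 higher and 65 lower), 0 with a pseudocount of 1 (78 and 27), 0 with a filter of 5 FPKM (74 and 20) and 11 at a limit of 1.5-fold, with 2 lower (514 and 287). For sh-LNMAT1#1 by itself 20 were higher and 5 lower (658 and 633), and for sh-LNMAT1#2 2 and 1 (237 and 169). In 5637 they were 9 with a pseudocount of 1 (all genes 1766 higher and 1577 lower), and 0 with a filter of 5 FPKM, with 8 lower (831 and 946). The pooled comparison called 154 of all genes with no filter, and leaving out each library in turn gave 0 to 69 antisense RNAs and 0 to 3947 of all genes, the highest without UM-UC-3 sh-NC. The cause of these shifts was not tested. No called difference changed sign, in alternatives that reuse the same libraries and so give no independent check. Some small differences that were not called did change sign, such as that of MIF-AS1 (log2 -0.07, and 0.22 without 5637 sh-LNMAT1#1). The share of pairs with the same direction was 67.1% at a limit of 1 FPKM and 59.1% at 5 FPKM. With 1 library per construct and line, hairpin, culture and library cannot be told apart, and a test on 2 residual degrees of freedom measures the spread of these libraries alone. Selection by the highest value and the unknown strand setting bear on each count of antisense RNAs. Depth limits the low values: OVCH1-AS1 in 5637 rests on at most 8.66 and 5.77 fragments.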
